A study of Rattus norvegicus with 4 samples.

Results

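The 9 genes described here are tetraspanins: Cd63, Cd37, Cd9, Cd53, Cd81, Cd82, Cd151, Tspan3 and Tspan31. They were taken by name as granule, B cell and widely expressed leukocyte members of the family, out of 14218 genes named by the array's annotation. Each was measured by 1 probe set, out of 31099 on the array. Affymetrix arrays had been hybridised with RNA of BioBreeding rats, from cells described as mast cells. The donors were females at day 65, and the cells came from the lymph nodes of the pancreas. The DRlyp/lyp rats (titled DP, diabetes prone) are homozygous for lyp, a loss-of-function mutation of Gimap5 that leaves few peripheral T cells. The DR+/+ rats (titled DR, diabetes resistant) carry the normal gene. Both groups carried the AA4+ label, after an antibody to gangliosides of the rat mast cell surface. RNA of 8 animals formed 1 pool per group. Each pool went through amplification and hybridisation in duplicate, so there were 4 arrays and 2 pools, and no spread between animals could be had. All p-values below measure the spread between duplicate amplifications and compare these pools, not the strains.

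Tetraspanins are small proteins that cross the membrane several times and have a large extracellular loop. They gather integrins, antigen receptors, MHC molecules and sheddases into patches of membrane, and they help to sort these partners through endosomes. In mast cells Cd63 sits in the membrane of secretory granules and reaches the cell surface when the granules are released, which makes it a common marker of degranulation. Cd37 is best known from B cells, Cd53 from all leukocytes, and Cd81 from lymphocytes and many other cells.

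The promoters of the 4 members that were lower in the DRlyp/lyp pool, and of Cd53, which was not, are shown so that the sequences in front of the moving genes can be compared. Each runs from 250 bases before to 50 bases after the RefSeq start in the GRCr8 assembly, 5′ to 3′ on the gene's strand. Capitals mark matches, on either strand, to 7 short motifs. The GC box, which Sp factors bind, was searched as GGGCGG. The E-box of MiT and other helix-loop-helix factors was searched as CACGTG, and their M-box as CACATG. The AP-1 element of Fos and Jun proteins was searched as TGANTCA. The PU box of the leukocyte factor Spi1 was searched as GAGGAA, and the promoter elements named CCAAT box and TATA box by the letters CCAAT and TATAAA. No match overlaps another in these windows.
Cd63, chr7:1921894-1922193, plus strand: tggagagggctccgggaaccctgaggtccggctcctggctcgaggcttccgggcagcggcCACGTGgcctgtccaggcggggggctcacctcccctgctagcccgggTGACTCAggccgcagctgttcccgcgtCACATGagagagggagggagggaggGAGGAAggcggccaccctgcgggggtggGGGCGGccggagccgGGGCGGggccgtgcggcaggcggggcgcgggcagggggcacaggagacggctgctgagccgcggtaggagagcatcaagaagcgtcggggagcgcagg
Cd37, chr1:104860735-104861034, minus strand: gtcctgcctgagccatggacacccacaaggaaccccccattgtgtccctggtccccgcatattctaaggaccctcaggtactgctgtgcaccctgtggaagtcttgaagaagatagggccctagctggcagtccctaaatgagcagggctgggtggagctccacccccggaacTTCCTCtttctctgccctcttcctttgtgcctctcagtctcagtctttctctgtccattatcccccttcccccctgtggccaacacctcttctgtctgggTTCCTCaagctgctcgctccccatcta
Cd9, chr4:159975309-159975608, minus strand: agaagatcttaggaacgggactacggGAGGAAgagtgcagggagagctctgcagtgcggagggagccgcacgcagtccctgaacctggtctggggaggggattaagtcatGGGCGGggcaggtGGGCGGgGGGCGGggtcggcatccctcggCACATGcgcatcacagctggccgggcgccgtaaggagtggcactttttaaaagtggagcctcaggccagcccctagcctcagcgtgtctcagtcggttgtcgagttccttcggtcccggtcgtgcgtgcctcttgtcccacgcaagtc
Tspan3, chr8:65465795-65466094, minus strand: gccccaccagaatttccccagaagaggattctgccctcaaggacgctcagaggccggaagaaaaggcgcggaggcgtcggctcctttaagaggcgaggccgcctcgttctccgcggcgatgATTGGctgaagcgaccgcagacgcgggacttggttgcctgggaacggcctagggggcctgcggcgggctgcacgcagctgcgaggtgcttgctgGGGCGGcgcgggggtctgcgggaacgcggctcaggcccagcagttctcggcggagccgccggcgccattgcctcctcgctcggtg
Cd53, chr2:197087847-197088146, minus strand: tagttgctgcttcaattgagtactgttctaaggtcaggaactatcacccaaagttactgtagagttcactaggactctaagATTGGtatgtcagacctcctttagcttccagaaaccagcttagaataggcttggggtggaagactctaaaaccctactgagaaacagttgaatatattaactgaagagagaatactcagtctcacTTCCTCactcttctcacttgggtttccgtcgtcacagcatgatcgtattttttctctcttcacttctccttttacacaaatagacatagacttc

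The window of Cd63 held 2 GC boxes and 1 match each to the E-box, M-box, AP-1 and PU box letters. The windows of Cd37 and Cd53 held no GC box, and their matches were PU boxes, 2 in Cd37 and 1 in Cd53, with 1 CCAAT box in Cd53. Cd9 had 3 GC boxes, 1 M-box and 1 PU box, and Tspan3 had 1 GC box and 1 CCAAT box. The share of G and C was 75% in the Cd63 window, 69.3% in Tspan3, 64% in Cd9, 57.3% in Cd37 and 40.7% in Cd53. In the windows not shown, of members that were not called, it was 68.7% in Cd81, 61.7% in Cd151 and 49.7% in Tspan31. The median over 33469 RefSeq promoters of 300 bases was 51.7%. Of all those promoters, 33.1% held a GC box, 27.6% a PU box, 37.5% a CCAAT box, 14.2% a TATA box, 14% an M-box, 7.33% an AP-1 match and 6.42% an E-box. Windows were at hand for 8 members. A PU box lay in 4 of them (Cd63, Cd37, Cd9 and Cd53) and a GC box in 5 (Cd63, Cd9, Tspan3, Cd81 and Cd151). Cd81 and Cd151, which were not called, held 2 GC boxes each. An M-box lay in 2 windows and a CCAAT box in 3, of which Tspan31 alone had 5 matches. None of these motifs was shared by all 4 lower members, and a match of letters is neither a bound site nor a cause.

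Of the 9 members, 4 were lower in the DRlyp/lyp pool and 0 were higher (limma, adjusted p under 0.05). Cd37 was 2.04-fold lower, Cd9 1.85-fold, Cd63 1.59-fold and Tspan3 1.58-fold. Cd82, Tspan31, Cd81, Cd53 and Cd151 did not pass the threshold. Over all 16068 probe sets tested, 39.2% passed, 19.9% as lower and 19.3% as higher in the DRlyp/lyp pool, so a count of 4 in 9 in either direction is near the background. At an unadjusted p under 0.05, 5 members were lower and 1 was higher. The share of all probe sets at that level was not computed, but it is at least the 39.2% that passed after adjustment. The median difference of the members was -0.35 on the log2 scale (DRlyp/lyp minus DR+/+), against 0.00 over all probe sets tested. Every member lay above the filter on dim probe sets, a signal of 28.3, on all 4 arrays, from 86.4 (Cd9) to 3832.6 (Cd53), so none entered the test through 1 pool alone. In pools of mixed cells, fewer cells of a type and less RNA per cell cannot be told apart.

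**Figure D1:**
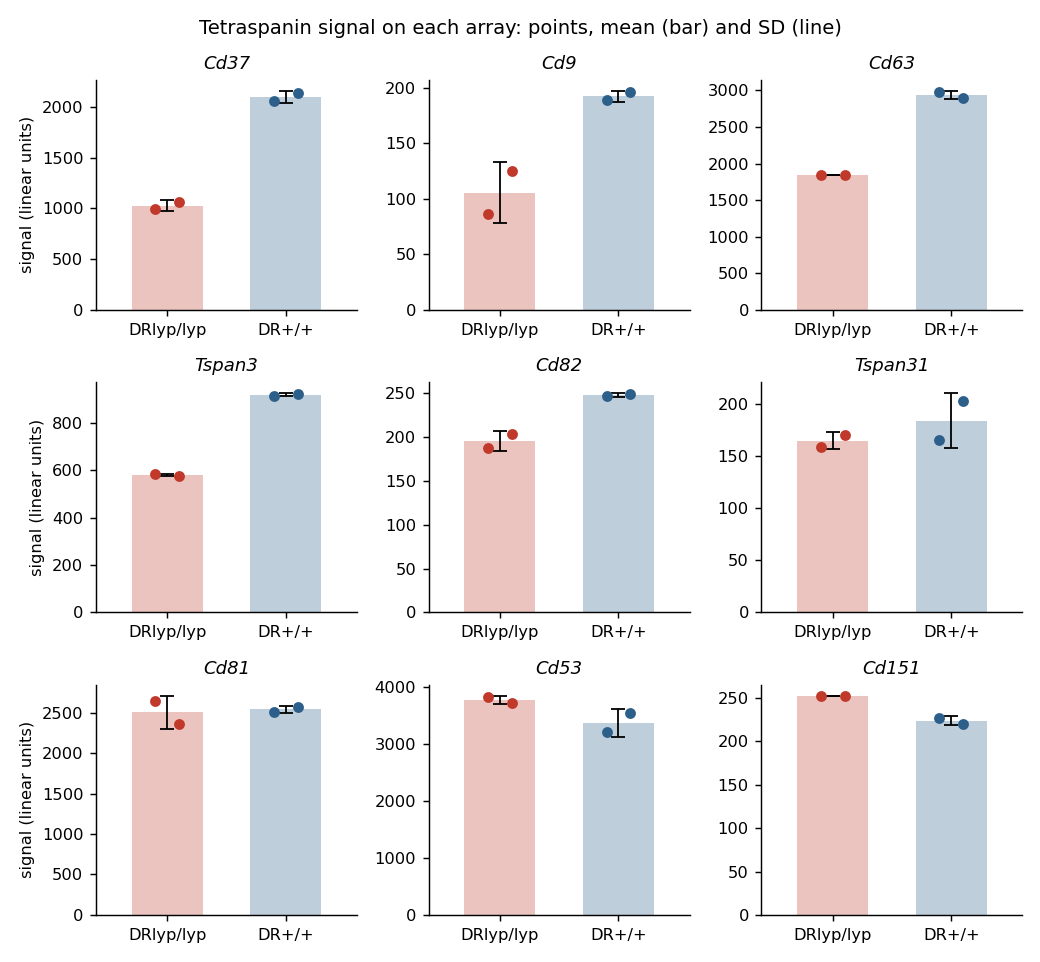
Signal of each tetraspanin (linear units, axis from 0) on the DRlyp/lyp arrays (red) and the DR+/+ arrays (blue), with points for arrays, bars for the mean and lines for the SD of 2 arrays. The DRlyp/lyp points of Cd37, Cd9, Cd63, Tspan3 and Cd82 lie below both DR+/+ points, those of Cd53 and Cd151 lie above, and those of Cd81 and Tspan31 overlap.

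Cd63 is the member of granules, late endosomes and lysosomes. Its probe set (1367709_at) read 1845.2 and 1843.8 on the DRlyp/lyp arrays and 2979.5 and 2901 on the DR+/+ arrays. The duplicates of each pool lay close together and the pools did not overlap. The means were 1844.5 ± 0.99 and 2940.2 ± 55.5 (SD, n = 2 arrays), a log2 difference of -0.67 (SE 0.061, adjusted p = 8.12e-06, limma). The 95% interval of the fold ran from 1.45 to 1.75. The difference was past zero but not shown to exceed 1.5-fold (adjusted p = 0.549, limma's test against a 1.5-fold minimum).

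Cd37, a tetraspanin of mature B cells that also restrains signalling in other leukocytes, had the largest difference of the members. Its probe set (1368555_at) read 990.6 and 1064.2 against 2055.4 and 2142.1. Both DRlyp/lyp values lay far below both DR+/+ values. The means were 1027.4 ± 52 and 2098.8 ± 61.3, a log2 difference of -1.03 (SE 0.075, adjusted p = 1.36e-06, limma). It was the only member that also passed the test against a 1.5-fold minimum (adjusted p = 0.00181, limma). Of all probe sets tested, 5.86% had a lower difference than Cd37, 8.44% than Cd9, 13.6% than Cd63 and 13.9% than Tspan3.

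Cd9 and Cd81 are close relatives that bind the same immunoglobulin-superfamily partners, and they read differently here. Cd9, which platelets, mast cells and other myeloid cells carry, is measured by 1371499_at and read 86.4 and 125.2 against 189.2 and 196.1. The DRlyp/lyp arrays were both lower, but they stood further apart from each other than the DR+/+ arrays did. The means were 106 ± 27.4 and 193 ± 4.88, a log2 difference of -0.89 (SE 0.21, adjusted p = 0.00515, limma), with a fold between 1.35 and 2.53 in the 95% interval. Without DRlyp/lyp replicate 1, the lower array, the difference was -0.62 and no longer past the threshold (adjusted p = 0.0843, limma).

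Cd81, a widely expressed partner of integrins and other surface receptors, is measured by 1398827_at and read 2648.4 and 2354.3 against 2505.8 and 2573.3. The DRlyp/lyp values lay on either side of the DR+/+ values. The log2 difference was -0.02, with a 95% interval from -0.18 to 0.13 (adjusted p = 0.812, limma). The intervals of Cd9 and Cd81 did not overlap, although the difference between the genes was not itself tested.

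Cd82, which T cells increase on activation, read 187.5 and 203.4 against 246.6 and 249.7 (1386976_at). Both DRlyp/lyp values were below both DR+/+ values. The log2 difference was -0.35, with a 95% interval from -0.66 to -0.03, and it did not pass the threshold after adjustment (adjusted p = 0.0805, limma). It did so with each array centred on its median (-0.46, adjusted p = 0.0392, limma).

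Cd53, found on nearly all leukocytes, read 3832.6 and 3732 against 3205.7 and 3553 (1368518_at). Both DRlyp/lyp arrays were higher, but the nearest arrays of the pools lay closer together than the DR+/+ duplicates. The means were 3782.3 ± 71.1 and 3379.3 ± 246, a log2 difference of 0.16 with a 95% interval from 0.03 to 0.30 (adjusted p = 0.0522, limma). The adjusted p lay close to the threshold and fell under it in 5 of 14 alternative settings, among them leaving out DR+/+ replicate 2 (0.24, adjusted p = 0.0223, limma).

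Cd151, a partner of laminin-binding integrins in endothelium, epithelium and platelets, read 252 and 252.7 against 227.6 and 220.3 (1367681_at). The pools did not overlap, yet the log2 difference of 0.17 had a 95% interval from -0.13 to 0.48 (adjusted p = 0.356, limma). The limma test draws the spread of a probe set toward that of other sets of like signal, so a close pair of duplicates did not by itself give a call. Over all probe sets tested, the arrays of the pools did not overlap in 70.0%, lower in 35.4% and higher in 34.6%. Among the members this held for 7 of 9, with 5 lower and 2 higher.

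Tspan3, a broadly expressed member, read 583.4 and 576.8 against 914.3 and 924 (1398325_at). The duplicates of each pool nearly coincided and the pools stood well apart. The means were 580.1 ± 4.67 and 919 ± 6.86, a log2 difference of -0.66 (SE 0.09, adjusted p = 0.000152, limma). Tspan31, a member first found in amplified DNA of sarcomas, read 159 and 170.3 against 165 and 202.5 (1372739_at). The pools overlapped, and the log2 difference of -0.15 had a 95% interval from -0.53 to 0.22 (adjusted p = 0.518, limma).

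In order from most lower to most higher, the differences ran Cd37, Cd9, Cd63, Tspan3, Cd82, Tspan31, Cd81, Cd53 and Cd151. The 95% intervals of all 8 neighbouring pairs overlapped, so the order of neighbours was not settled by these arrays.

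**Figure D2:**
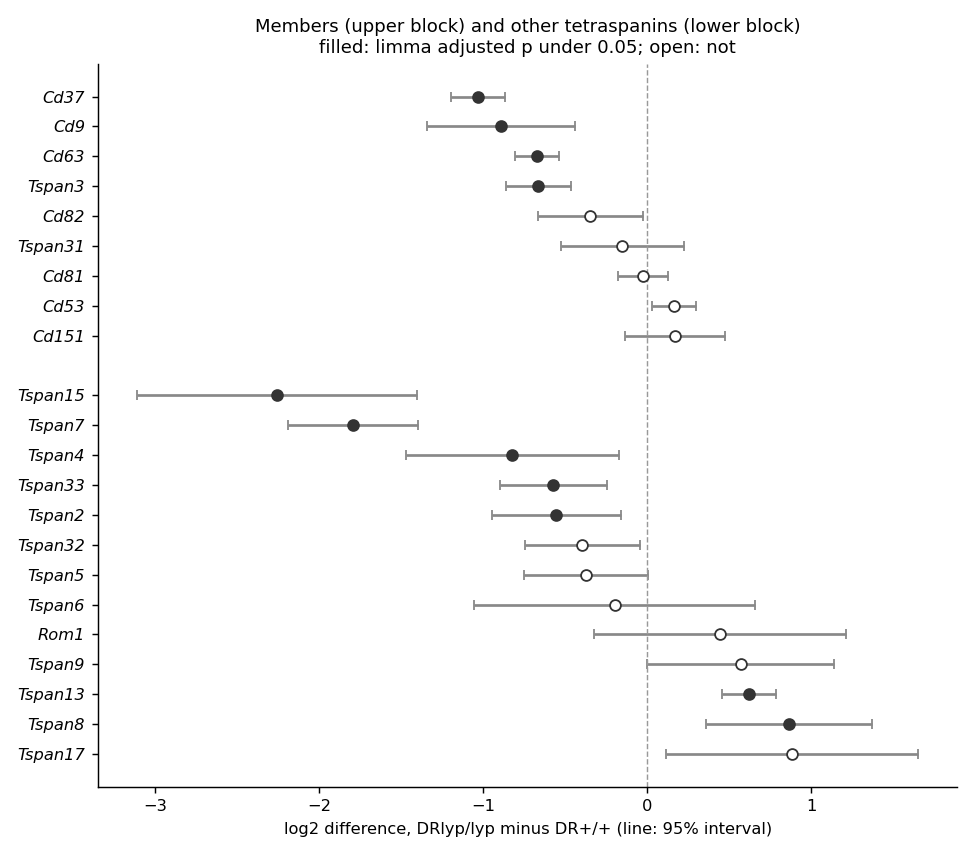
Log2 difference, DRlyp/lyp minus DR+/+, with its 95% interval for the 9 members (upper block) and the 13 other tetraspanins tested (lower block); filled points had an adjusted p under 0.05 in limma. Among the members, 4 filled points lie below zero and none above, and in the lower block 5 lie below and 2 above.

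Of 23 other tetraspanins listed, 19 had a probe set and 13 were tested. In the DRlyp/lyp pool 5 were lower, 2 were higher and 6 did not pass the threshold. With 1 probe set per gene, 42.0% of all 9349 genes passed, 21.1% as lower and 20.9% as higher. The median difference was -0.37, against 0.00 over all genes. With median centring 2 were higher and 7 lower, but with no intensity trend in the fit 3 were higher and 2 lower. Without DR+/+ replicate 1 the median difference was -0.14. Tspan1, Tspan18, Upk1a, Upk1b and Prph2, several of them tetraspanins of epithelium or retina, were not above the filter on any array.

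The largest lower differences were in Tspan15 and Tspan7. Tspan15, which guides the sheddase Adam10 to the cell surface, read 30.8 and 13.5 against 94.7 and 100.6, so 1 DRlyp/lyp array lay below the filter (log2 difference -2.26, adjusted p = 0.000802, limma). Tspan7, known as an islet autoantigen in human type 1 diabetes, read 168.3 and 112.2 against 489.5 and 464.9. It was 3.47-fold lower (adjusted p = 1.77e-05, limma). In both genes the DRlyp/lyp arrays lay far below the DR+/+ arrays. Tspan33, another regulator of Adam10, was lower by less, at 228 ± 16.1 against 341 ± 53 (1.49-fold, adjusted p = 0.00967, limma). A dimmer probe set of Tspan33 was 1.95-fold lower (adjusted p = 0.0159, limma), and another was not tested.

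Tspan4, a component of migrasomes (1.77-fold), and Tspan2, a member abundant in oligodendrocytes (1.47-fold), were also lower. The other probe set of Tspan2 differed by 0.01 only. Tspan5 did not pass by its brightest probe set (log2 difference -0.37, adjusted p = 0.107, limma). A dimmer one did pass as lower (-0.55, adjusted p = 0.0462, limma), and the remaining one did not (-0.59, adjusted p = 0.261, limma). Tspan13 went the other way, at 3986.1 and 3362 against 2361.1 and 2401.3 (1.54-fold higher, adjusted p = 7.14e-05, limma). Tspan8, an epithelial tetraspanin also studied in tumours, read 112.5 and 108.7 against 66.2 and 55.6 (1.82-fold higher, adjusted p = 0.0109, limma). Leaving out DRlyp/lyp replicate 2 ended the calls of Tspan4, Tspan2, Tspan33 and Tspan8. Those of Tspan33 and Tspan8 were also lost without DRlyp/lyp replicate 1, those of Tspan4, Tspan2 and Tspan33 without DR+/+ replicate 1, and that of Tspan2 without DR+/+ replicate 2. The count of 7 called became 3 without DRlyp/lyp replicate 2 and 4 without DR+/+ replicate 1.

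Tetraspanin partners, the integrins, receptors and proteases that these proteins hold in the membrane, differed in both directions. Higher signal was found for 9 of 20 tested, against 20.9% of all genes, and lower signal for 6, against 21.1% (median log2 difference 0.05). This split turned with the scaling, to 5 higher and 7 lower with median centring and to 7 higher and 8 lower with quantile normalization. Vcam1, an adhesion ligand of leukocyte integrins, read 1074.2 and 1015.3 against 2878.7 and 2875 (2.75-fold lower, adjusted p = 4.05e-08, limma). Adam10, the protease guided by Tspan15 and Tspan33, read 56 and 68.7 against 144.8 and 113.3 (2.07-fold lower, adjusted p = 0.00427, limma). The arrays of neither gene overlapped between pools.

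Also lower were Cd47, the signal that restrains phagocytosis (1.93-fold), the scavenger receptor Cd36 (1.84-fold) and the adhesion ligand Icam1 (1.32-fold). Higher were Ptgfrn, a direct partner of Cd9 and Cd81, at 70.5 ± 0.424 against 38 ± 2.4 (1.86-fold), and Itga6, a laminin receptor chain joined to Cd151, at 615 ± 53.5 against 347 ± 36.4 (1.77-fold). Ifitm1, an interferon-induced membrane protein that associates with Cd81, was 1.63-fold higher. The MHC class II chains RT1-Da (1.44-fold) and RT1-Ba (1.39-fold) were higher too. The calls of Adam10 and Ptgfrn were lost without DRlyp/lyp replicate 1, those of Ptgfrn and Cd36 without DRlyp/lyp replicate 2 and also without DR+/+ replicate 2. The count of 15 called became 9 without DRlyp/lyp replicate 1 and 9 without DRlyp/lyp replicate 2.

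Genes of late endosomes, lysosome membrane and vesicle sorting, some of which sort Cd63, were also split. Higher signal was found for 5 of 17 tested and lower signal for 4 (median log2 difference 0.15), near the 20.9% and 21.1% of all genes. With median centring 2 were higher and 4 lower, the higher calls of Ap3b1, Vps4a and Lamp2 being lost. The adaptor chains Ap3d1 (1.31-fold) and Ap3b1 (1.27-fold), which sort Cd63 toward lysosomes, were higher, whereas Ap3s1 of the same complex was lower (1.43-fold). Pdcd6ip, a scaffold of vesicle budding (1.41-fold), the membrane-scission ATPase Vps4a (1.25-fold) and the lysosomal membrane protein Lamp2 (1.17-fold) were higher. Tsg101, which sorts cargo into multivesicular bodies (1.45-fold), the ATPase Vps4b (1.44-fold) and the endocytic adaptor chain Ap2m1 (1.23-fold) were lower. The count of 9 called was 5 without DRlyp/lyp replicate 1 and 4 without DRlyp/lyp replicate 2. Leaving out either of these arrays ended the calls of Ap3b1, Vps4a, Lamp2, Tsg101 and Ap2m1. Without DR+/+ replicate 1 those of Lamp2 and Vps4a were lost, and without DR+/+ replicate 2 those of Ap3b1, Tsg101 and Vps4a.

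Markers of several cell types differed between the pools beside the members. The counts below stand beside 42.0% of all 9349 genes that passed, 20.9% as higher and 21.1% as lower. No list was tested against these shares, and none was computed for unadjusted p-values. The B cell list, to which Cd37 and Cd81 are tied by their known expression, had 8 tested genes, with 0 higher and 4 lower in limma (0 higher and 6 lower at an unadjusted p under 0.05). Its summed signal was 11769 and 12452.9 on the DRlyp/lyp arrays and 14698.2 and 15737.3 on the DR+/+ arrays. The lower genes, named after their values were seen, were Cd79b, Cxcr5, Blk and Bank1. The bright B cell surface genes Ms4a1 (log2 difference -0.13, adjusted p = 0.101, limma) and Cr2 (-0.13, adjusted p = 0.113, limma) did not pass. The log2 difference of Cd37 was -1.03 and the median of the list -0.41. The part of B cells in the Cd37 difference was not tested.

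Mast cell markers went both ways. The list's summed signal was 2809 and 2716.4 on the DRlyp/lyp arrays and 1806 and 1795.2 on the DR+/+ arrays, with 2 of 8 tested genes higher and 2 lower. Mcpt1, a chymase, made up most of the gap (1633.4 ± 44.5 against 662 ± 9.55). The tryptases Tpsab1 (log2 difference -1.87, adjusted p = 0.000941, limma) and Tpsb2 (-1.53, adjusted p = 0.00119, limma) were lower. Fcer1a, an IgE receptor chain, was higher (0.85, adjusted p = 0.041, limma). All of these were named after their values were seen. The carboxypeptidase Cpa3 did not pass (log2 difference 0.23, adjusted p = 0.107, limma). Nor did Ms4a2 (-0.09, adjusted p = 0.815, limma), Cma1 (-0.02, adjusted p = 0.938, limma) and Hdc (0.36, adjusted p = 0.463, limma). Kit, a defining mast cell receptor, was below the filter on all 4 arrays and Gata2 was not tested. Mean signals on the DRlyp/lyp and DR+/+ arrays were 107.5 and 62.8 for Fcer1a and 67.25 and 72.35 for Ms4a2. The mast cell name therefore comes from the AA4+ label, and these markers do not show how much of the RNA came from mast cells. The part of mast cells in the Cd63 difference was not tested. Macrophage and dendritic cell genes were lower in 7 and higher in 3 of 11, with sums of 8388.8 and 8441.3 against 12479 and 13107.4. The brightest, Cd68, was higher by 0.50 on the log2 scale, and C1qa, a complement chain, had a log2 difference of -1.10, both past the threshold. Macrophages are rich in lysosomes, and their part in the Cd63 and Tspan3 differences was not tested.

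Platelet and endothelial genes bear on Cd9 and Cd151. Of 5 platelet and megakaryocyte genes matched, Gp9, Gp5 and Ppbp were below the filter on all arrays, and the 2 tested, Pf4 and Itga2b, were lower, with sums of 99.7 and 101.1 against 191.5 and 201.9. Of 5 endothelial and lymphatic genes tested, Kdr and Pecam1 were lower and Tek and Vwf higher, Pecam1 and Vwf being named after their values were seen (sums 708 and 713.5 against 874.8 and 845.6). T cell genes were 10 higher and 1 lower of 11, with sums of 9139.7 and 9207.2 against 1967.7 and 2180.5, whereas Cd53 and Cd82, both present on T cells, did not pass in either direction. Cd4, the lower T cell gene, was below the filter on both DRlyp/lyp arrays and entered the test through the DR+/+ pool alone. Exocrine pancreas genes were higher in 10 of 10 tested, with sums of 9061.6 and 9303.5 against 241.9 and 236.4. Ctrb1, Cpa1, Cpb1, Cel and Clps were below the filter on both DR+/+ arrays. They entered the test through the DRlyp/lyp pool alone, so their direction was fixed in advance. The parts of these cells in the differences of Cd9, Cd82, Cd53 and Cd151 were not tested.

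**Figure D3:**
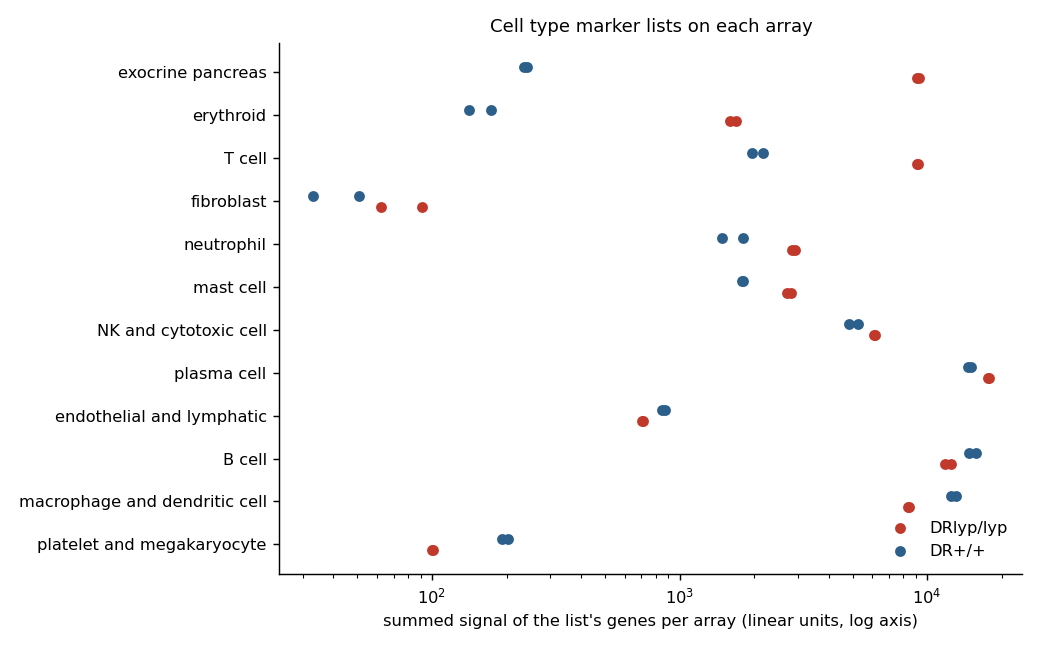
Summed signal of each cell type marker list (linear units, log axis) on the DRlyp/lyp arrays (red) and the DR+/+ arrays (blue), 1 point per array. Exocrine pancreas, erythroid and T cell lists lie higher in the DRlyp/lyp pool, and macrophage, platelet and B cell lists lie lower.

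Among the remaining lists, genes of plasma cells were 2 higher and 1 lower of 6, and of NK and cytotoxic cells 3 and 2 of 7. Those of neutrophils were 2 and 0 of 4 (3 higher and 0 lower at an unadjusted p under 0.05) and of erythroid cells 2 and 0 of 2. Alas2 of the erythroid list was below the filter on both DR+/+ arrays, and Ncr1 of the NK list on both DRlyp/lyp arrays. Each entered the test through the other pool alone. None of 6 fibroblast genes was tested. RNA quality moved with the pools too. The 3′ minus 5′ log2 signal of the beta-actin control was 4.43 and 4.55 on the DRlyp/lyp arrays and 3.01 and 3.10 on the DR+/+ arrays, and that of GAPDH 2.49 and 2.44 against 1.74 and 1.57. With 1 pool per group, it cannot be told apart from the groups in any difference given here.

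The calls were compared over 14 alternative settings per member. Cd37 was past the threshold in 14, Cd63 and Tspan3 in 13, Cd9 in 11, Cd53 in 5 and Cd82 in 1, and Cd81, Cd151 and Tspan31 in 0. Centring the arrays on their medians moved the median of all probe sets to -0.11 and each member with it, and it turned no member's direction. The calls over all probe sets were then split 36.1% higher, compared with 49.3% as deposited, and 5 members were lower.

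**Figure D4:**
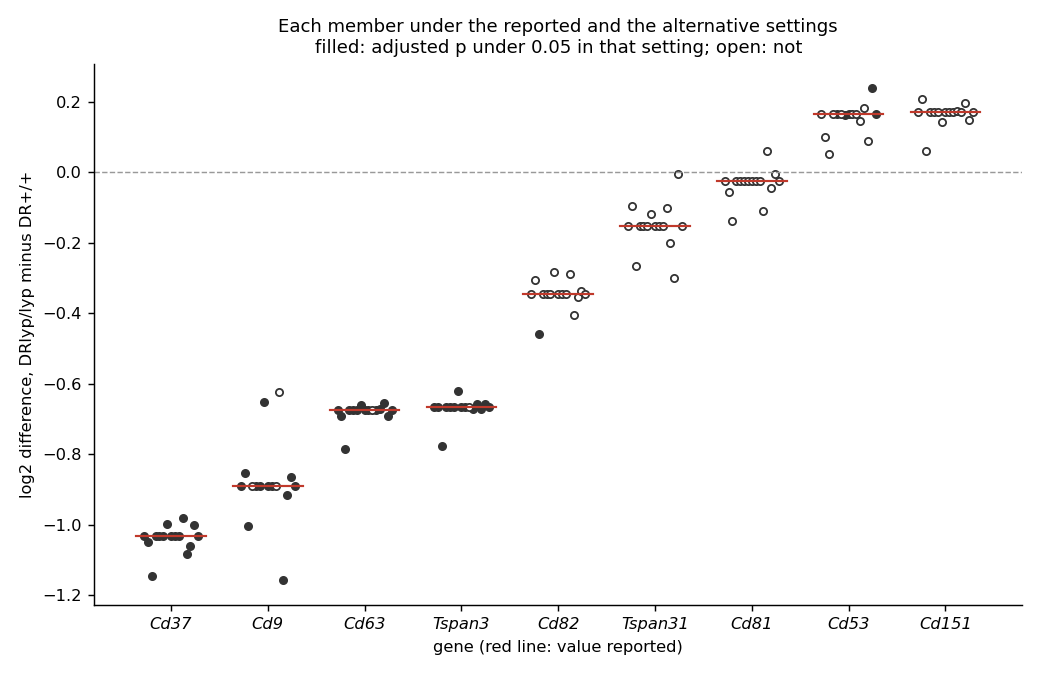
Log2 difference of each member (DRlyp/lyp minus DR+/+) under the reported setting and 14 alternatives, with a red line at the reported value and filled points where the adjusted p was under 0.05. Cd37 stays between -1.14 and -0.98, Cd63 between -0.79 and -0.65, Cd9 between -1.16 and -0.62, and Cd81 lies on both sides of zero.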

How the data were processed

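Gene expression was measured on 4 Affymetrix Rat Genome arrays, 2 per pool, from about 50 ng of RNA, per the labels' design text. The authors deposited 1 intensity per probe set and array, unlogged, whose 2% trimmed mean was 150.1 on each array. The summarisation program is not given in the sources used here.

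A floor at the 25th percentile of all values (6.8) was set before log2. Control sets (57) were left out. Sets that exceeded the median of all values (28.3) on 2 or more arrays, 16068 in number, entered a two-sided limma fit (version 3.58.1, R 4.3.3; intensity trend, 2 residual degrees of freedom, Benjamini-Hochberg over all sets, threshold 0.05). A list gene was represented by its brightest tested probe set. Folds are on the floored scale, levels of different genes were not compared, and the number of arrays limits the precision. Symbols came from the platform annotation of 2016. All 9 members kept theirs in RefSeq (GRCr8), which also gave the promoters.

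The members and lists were chosen with earlier results of these data known. The rule for names took all members, up to 5 called genes each way per pathway list and the 2 brightest of each marker list. Markers were named only where they bear on a member or on how a list's count came about, the latter after their values were seen. Tspan5 was named for its other probe sets. In a simulation that shifted 200 of 16068 sets, the fit found 24% of shifts of 0.5, 66% of 1 and 96% of 2 on the log2 scale. Of its 147 calls, 5 were false. In the real data 39.2% of sets passed, a far larger share than was shifted, so these rates need not hold there. Alternatives were quantile normalization, median centring, no filter or a stricter one (75th percentile), a lower floor (10th), an offset of 50, a replicate block, leaving out each array, no trend, a 1.5-fold minimum and the mean of a gene's sets. Figures used matplotlib 3.10.9 in Python 3.11.15.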

Additional observations from a re-analysis of the deposited data

How the results depend on the processing

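No member called lower changed direction under any alternative run. Changes of filter, floor, trend, block or minimum fold, and the mean of a gene's sets, left their differences as they were. Direction could therefore change only with the 2 normalizations, the offset or an array left out. Without a filter 1671 probe sets were called in place of 6302, 0 other tetraspanins (limma), 3 partners, 1 sorting gene and 3 members, Cd9 being lost (adjusted p = 0.172). Against a 1.5-fold minimum the counts were 958 in all, 1 member, 2 other tetraspanins, 2 partners and 0 sorting genes. With no intensity trend they were 4057 in all and 8 partners. Other tetraspanins were then 3 higher and 2 lower, and sorting genes 0 higher and 2 lower. With the 75th percentile filter 4 other tetraspanins were called. The causes were not tested. Leaving out 1 array gave 3478 to 5800 calls in all, 3 to 4 lower members, 3 to 7 other tetraspanins, 9 to 14 partners and 4 to 8 sorting genes; the lone array was assumed to vary like the others. Cd81 ran from -0.11 without DRlyp/lyp replicate 1 to 0.061 without DRlyp/lyp replicate 2, and Cd74, an MHC class II partner, turned to -0.060 with quantile normalization. The settings for the pathway lists were added after the data were seen.

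The replicate numbers gave little sign of pairing the samples (correlation of deviations 0.04 for the same number and -0.04 crossed). With 2 arrays per pool the crossed value is the negative of the first by construction. This check cannot show that no batch was shared. With a replicate block 7044 probe sets and 5 members were called, the added member being Cd53 (adjusted p = 0.0066). With 2 arrays per pool, smaller differences than those called can be missed.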
